A study of Rattus norvegicus with 10 samples.

Results

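Wnt signalling was described through 9 genes, namely the ligands Wnt5a and Wnt5b, the secreted antagonists Sfrp1, Sfrp2, Sfrp4 and Dkk3, the transducer Ctnnb1, and Axin2 and Lef1, which are both parts and targets of the pathway. They are 9 of the 14217 genes read by a probe set annotated to a single gene, and where several probe sets read a gene, the one with the highest mean log2 signal over all 10 arrays was used. All 9 lay above the limit on dim signal (a mean log2 signal of 5.15), so each was tested. The series holds 5 total tumours, collected at an age of 19 weeks, and 5 biopsies, cut at 12 weeks with a needle (0.7 cm by 2.5 mm) once the tumour measured 2 cm3. Both came from the same 5 mammary tumours (labelled 31D3, 32D1, 37I1, 50I1, 52I4) of female rats of the outbred Sprague-Dawley strain. Every rat had received the carcinogen 7,12-dimethylbenz(a)anthracene (DMBA) once by mouth at 100 mg/kg, so no array represents untreated mammary gland and the groups share that exposure. Tumours were selected for an intermediate histological grade, and the labels do not say whether they came from different rats.

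Wnt ligands are lipid-modified secreted proteins that bind Frizzled receptors. In the canonical branch, Lrp5 or Lrp6 joins the receptor, a destruction complex built on axin stops degrading β-catenin, and β-catenin then works with Tcf and Lef factors on target genes. Wnt5a and Wnt5b act mostly outside this branch, secreted frizzled-related proteins bind ligands outside the cell, and in the mammary gland the pathway is known for its part in ductal branching, stem cells and, in mice, tumours driven by Wnt1.

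Promoter sequences are shown for Axin2, Lef1 and Wnt5a because these genes had levels that went with the tumour rather than with the moment of sampling. Each line gives the 250 bases before the start of the gene in RefSeq (build GRCr8), 5′ to 3′ on the + strand, and capitals mark CTTTGA, the core of the site read by Tcf and Lef factors.
Axin2, chr10:94398535-94398784: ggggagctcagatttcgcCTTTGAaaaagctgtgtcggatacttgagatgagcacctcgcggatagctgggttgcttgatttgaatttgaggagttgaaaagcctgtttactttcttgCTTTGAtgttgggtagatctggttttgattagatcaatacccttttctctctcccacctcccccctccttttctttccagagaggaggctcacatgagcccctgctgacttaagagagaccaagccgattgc
Lef1, chr2:222340463-222340712: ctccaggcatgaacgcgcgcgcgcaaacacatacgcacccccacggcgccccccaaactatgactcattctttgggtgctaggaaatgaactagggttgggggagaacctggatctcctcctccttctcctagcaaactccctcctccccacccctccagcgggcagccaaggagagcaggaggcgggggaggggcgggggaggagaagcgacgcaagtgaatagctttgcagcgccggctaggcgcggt
Wnt5a, chr16:3703415-3703664: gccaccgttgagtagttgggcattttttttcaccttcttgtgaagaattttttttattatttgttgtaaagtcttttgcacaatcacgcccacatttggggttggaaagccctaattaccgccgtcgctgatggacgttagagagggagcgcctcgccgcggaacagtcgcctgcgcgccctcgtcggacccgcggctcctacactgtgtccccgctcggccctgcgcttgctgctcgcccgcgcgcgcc
The motif, or its reverse complement TCAAAG, was searched on both strands. Axin2 held it 2 times, starting 232 and 132 bases before the gene start, and Lef1 and Wnt5a did not hold it in this window. The windows of Sfrp2 and Ctnnb1, not printed, did not hold it either, which made 1 of the 5 members with a window, while 4656 of all 33469 windows of this length (13.9%) held it. A match is a description of letters only.

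Log2 signals over the whole array lay between 2.34 and 14.26, array medians between 5.99 and 6.12, and Pearson's r of 1 array with another, over probe sets, between 0.952 and 0.989. With so few arrays, the precision of all values is limited. Epithelial marker means were high in all arrays, as the label of a mammary tumour implies. The mean of the 7 luminal markers above the limit, led by Krt19 and Epcam, lay between 11.50 and 12.05 in the total tumours. In the biopsies it lay between 11.42 and 11.99. Of the 8 listed, Foxa1 was below the limit and left out, and Elf5 varied from 5.18 to 10.97 over the arrays. Basal markers, led by Krt5 and Krt14, averaged between 10.82 and 11.36 in the total tumours and between 10.86 and 11.55 in the biopsies. This mean was over 6 of 8 listed genes, with Oxtr below the limit and Trp63 not read. Age, the way of sampling given in the labels and the run of numbers in the sample titles went with the group. The labels do not say what these numbers stand for, so a batch, if any, and the group cannot be told apart. In such bulk samples, fewer cells of a type and less RNA per cell cannot be told apart.

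No Wnt gene passed the test between total tumours and biopsies, and 0 of 18625 probe sets did over the whole array (0%; limma with the tumour as a block, adjusted p under 0.05). At an unadjusted p under 0.05, limma counted 1133 of the 18625 probe sets and the methods' paired test 1013. Chance alone gives about 5% of tests at this threshold. Among the 9 genes, 6 averaged higher in the total tumours and 3 lower, with a median difference of 0.22 on the log2 scale, against 51.2% higher and a median of 0.004 over the 10793 genes tested. Only Wnt5b had an unadjusted p under 0.05 (1.61% of genes did so on the higher side), and the total tumours and biopsies overlapped in all 9 genes. What differed was how the genes varied: Wnt5a, Lef1, Dkk3 and Axin2 kept nearly the same order of tumours at both moments, Sfrp1, Sfrp2 and Sfrp4 moved in opposite directions in different tumours, and the Ctnnb1 probe set used was nearly flat.

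**Figure D1:**
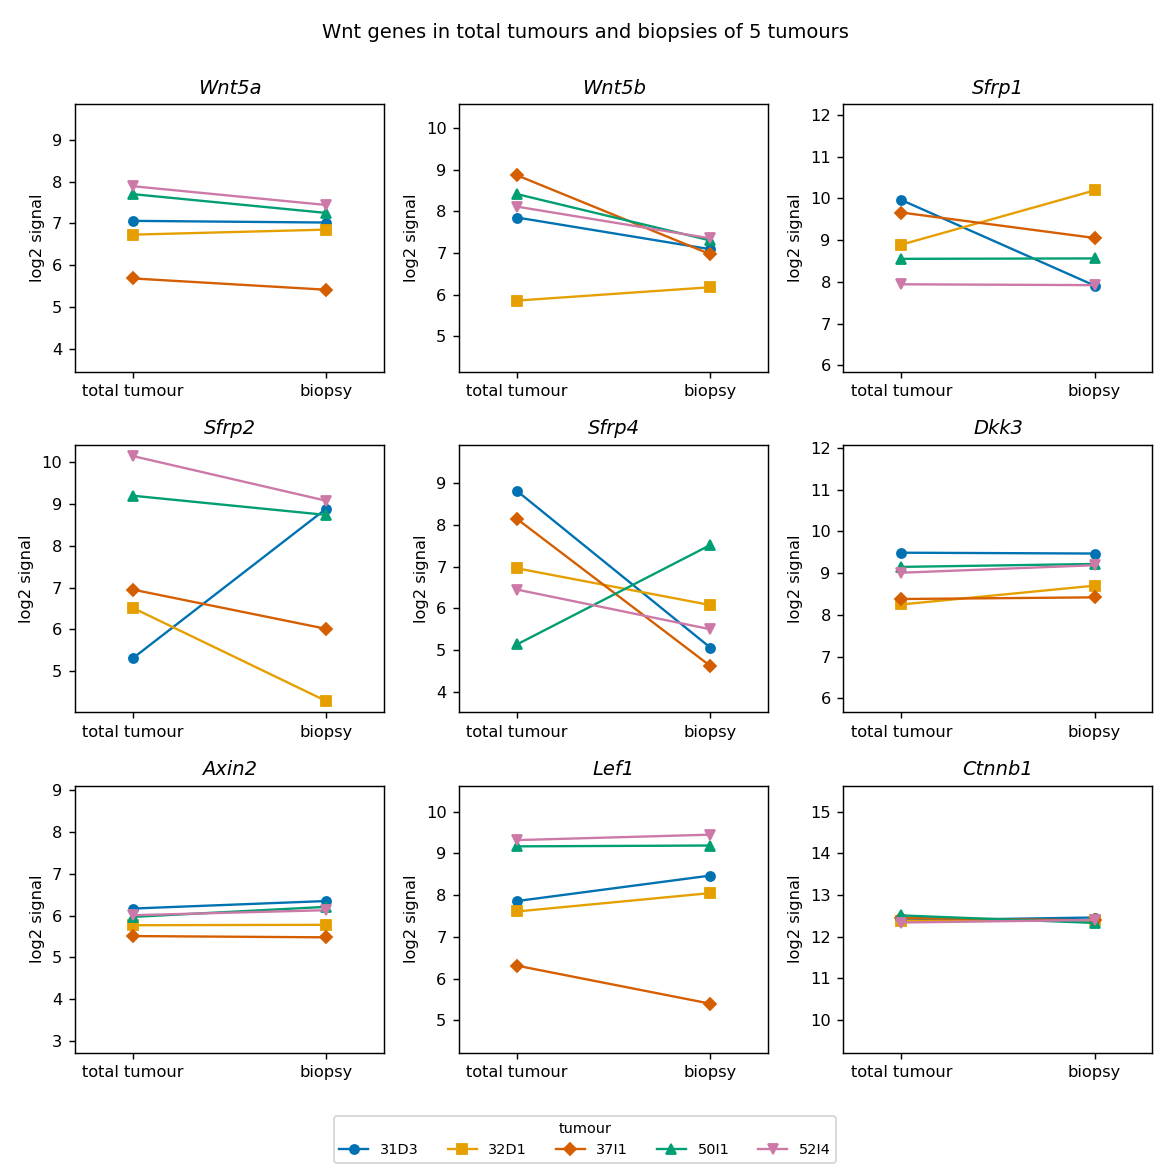
Log2 signal (y axis) of the 9 Wnt genes in total tumours and biopsies (x axis), with a line joining the samples of each tumour and a y axis of the same span in every panel. Lines of Wnt5a, Lef1, Dkk3 and Axin2 run nearly level, those of Sfrp1, Sfrp2 and Sfrp4 cross, Wnt5b is higher in 4 of 5 total tumours, and Ctnnb1 stays between 12.33 and 12.51.

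Among the ligands, Wnt5a, which steers cell movement and polarity, had log2 signals of 7.06 (31D3), 6.73 (32D1), 5.68 (37I1), 7.70 (50I1) and 7.89 (52I4) in total tumours. The biopsies of the same tumours had 7.02, 6.85, 5.41, 7.25 and 7.44, listed in the same order. Tumour 37I1 was lowest and 52I4 highest at both moments, and the groups overlapped over nearly their whole range. Means were 7.01 ± 0.88 in the total tumours and 6.79 ± 0.81 in the biopsies (SD, n = 5 each), a difference of 0.22 (SE 0.121; limma adjusted p = 0.846) with 4 of 5 pairs higher. The pair differences lay between -0.12 and 0.45, and the exact sign-flip permutation p was 0.1875, two-sided, where 5 pairs can give no p below 0.0625.

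Wnt5b, a close relative of Wnt5a, had log2 signals of 7.85 (31D3), 5.86 (32D1), 8.86 (37I1), 8.41 (50I1) and 8.11 (52I4) in total tumours and 7.09, 6.18, 6.97, 7.30 and 7.35 in the biopsies of these tumours. All total tumours except 32D1 lay above every biopsy, and 32D1 was the lowest array of both groups. Wnt5b averaged 7.82 ± 1.16 in the total tumours and 6.98 ± 0.47 in the biopsies (SD, n = 5 each). The difference of 0.84 (SE 0.292), or 1.79-fold, had an unadjusted p of 0.0259 and a limma adjusted p of 0.727. Without 32D1 it was 1.13 (unadjusted p = 0.00279 in limma). Leaving out any other tumour gave an unadjusted p of 0.0553 to 0.0714 and, without 37I1, a difference of 0.58. Tumour 37I1 thus had the lowest Wnt5a and, in its total tumour, the highest Wnt5b. Over the 10 arrays, which are 5 tumours taken at both moments, Pearson's r of the 2 ligands was 0.10, and 0.85 without 37I1.

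Wnt5b was among 8 ligands that could be tested, of 19 listed. Of these, 6 averaged higher and 2 lower in the total tumours, and 0 passed the adjusted threshold. Wnt6, an epithelial ligand, differed by 0.38 (SE 0.157, unadjusted p = 0.0478, limma adjusted p = 0.816), higher in 4 of 5 pairs. Leaving out 31D3, 50I1 or 52I4 gave Wnt6 an unadjusted limma p of 0.127, 0.143 and 0.138. Wnt4, which acts downstream of progesterone in the mammary gland of mice, had log2 signals of 8.71, 10.44, 10.42, 9.90 and 9.93 in the total tumours (for 31D3, 32D1, 37I1, 50I1, 52I4, as in all lists below) and 10.53, 9.81, 9.84, 10.83 and 11.36 in the biopsies. It was lower in the total tumour in 31D3, 50I1 and 52I4 and higher in the other two, with a difference of -0.60 (SE 0.408, limma adjusted p = 0.873). Ligand secretion was represented by 4 tested genes, with differences between -0.01 and 0.26. Wls, the carrier of Wnt proteins to the cell surface, differed by -0.01 (SE 0.135), Porcn, which adds their lipid, by 0.26 (SE 0.217), and the surface proteoglycan Gpc4 by 0.02 (SE 0.153).

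The antagonists Sfrp1, Sfrp2 and Sfrp4 varied more within tumours than the other 6 members, with the 3 largest standard errors of the pair differences. Sfrp1 had log2 signals of 9.96 (31D3), 8.89 (32D1), 9.66 (37I1), 8.55 (50I1) and 7.94 (52I4) in total tumours and 7.91, 10.19, 9.05, 8.56 and 7.92 in the biopsies. The total tumour of 31D3 lay 2.05 above its biopsy, that of 32D1 differed from its biopsy by -1.31, and 50I1 and 52I4 were level at -0.01 and 0.02. With 9.0 ± 0.82 in the total tumours and 8.73 ± 0.95 in the biopsies (SD, n = 5 each), the difference was 0.27 (SE 0.436, limma adjusted p = 0.942). It was -0.17 without 31D3 and 0.67 without 32D1. All 3 Sfrp1 probe sets were above the limit, and the other two gave 0.17 and -0.02.

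Sfrp2, a frizzled-related protein often made by fibroblasts, had log2 signals of 5.31 (31D3), 6.51 (32D1), 6.95 (37I1), 9.20 (50I1) and 10.15 (52I4) in total tumours and 8.89, 4.28, 6.01, 8.74 and 9.08 in the biopsies. Tumours 50I1 and 52I4 were high at both moments, 32D1 and 37I1 were lower than them at both, and 31D3 was lower in its total tumour by 3.58 on the log2 scale, the widest pair difference of the 3 Sfrp genes after Sfrp4 in the same tumour. The range over the 10 arrays, 5.87, was wider than in 99.7% of genes. Means were 7.62 ± 1.99 in the total tumours and 7.40 ± 2.15 in the biopsies (SD, n = 5 each), a difference of 0.22 (SE 0.787, limma adjusted p = 0.978) that was 1.18 without 31D3 and -0.28 without 32D1. It was 0.04 without 37I1 and 0.01 without 52I4. The second Sfrp2 probe set gave 0.16.

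Sfrp4, another frizzled-related protein, had log2 signals of 8.81 (31D3), 6.96 (32D1), 8.14 (37I1), 5.14 (50I1) and 6.45 (52I4) in total tumours and 5.06, 6.08, 4.62, 7.52 and 5.50 in the biopsies. It was higher in the total tumour in 4 of 5 pairs, by 3.76 in 31D3 and 3.53 in 37I1, and 50I1 went the other way by -2.39. Sfrp4 averaged 7.10 ± 1.44 in the total tumours and 5.76 ± 1.13 in the biopsies (SD, n = 5 each). The difference of 1.35 (SE 0.881), or 2.54-fold, had a limma adjusted p of 0.873. It was 2.28 without 50I1, 0.80 without 37I1 and 0.75 without 31D3. These 3 pairs each held an array below the limit of 5.15, the biopsy in 31D3 and 37I1 and the total tumour in 50I1. The other Sfrp4 probe set was below the limit in every array (3.29 to 3.59), gave 0.11 and correlated with the first at -0.11.

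The fibroblast marker list (10 of 10 genes above the limit, led by Postn and Col3a1) moved with Sfrp4 in 4 of 5 pairs. Its mean log2 signal was 10.81, 10.25, 10.06, 9.95 and 11.15 in the total tumours and 10.08, 10.62, 7.96, 11.33 and 9.83 in the biopsies. The pair differences of the list were 0.73 in 31D3, -0.37 in 32D1, 2.10 in 37I1, -1.37 in 50I1 and 1.32 in 52I4. The sign matched that of Sfrp4 except in 32D1. Endothelial markers moved likewise, by 0.71, -0.53, 0.45, -0.95 and 1.0 in these tumours, with the same signs as the fibroblast list. Macrophage markers differed by 0.90, -0.42, 2.14, -1.97 and -0.53 and T cell markers by 1.59, -0.53, 2.01, -1.64 and -0.90, with the sign of Sfrp4 in 31D3, 37I1 and 50I1. Adipocyte markers differed by -0.23, -0.23, 4.19, -1.38 and 1.91, against the sign of Sfrp4 in 31D3 and 32D1, on the 2 of 6 genes above the limit (Cfd and Fabp4, since Adipoq, Plin1, Cidec and Lep were dim). The adipocyte mean ranged over 6.08 to 8.93 in the total tumours and 4.74 to 7.69 in the biopsies. Sfrp1 had the sign of the fibroblast list in every pair, though it was level in 50I1 (-0.01) and 52I4 (0.02). Sfrp2 had the sign of that list only in 37I1 and 52I4. The part of these cell types in the results of the Sfrp genes was not tested.

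**Figure D2:**
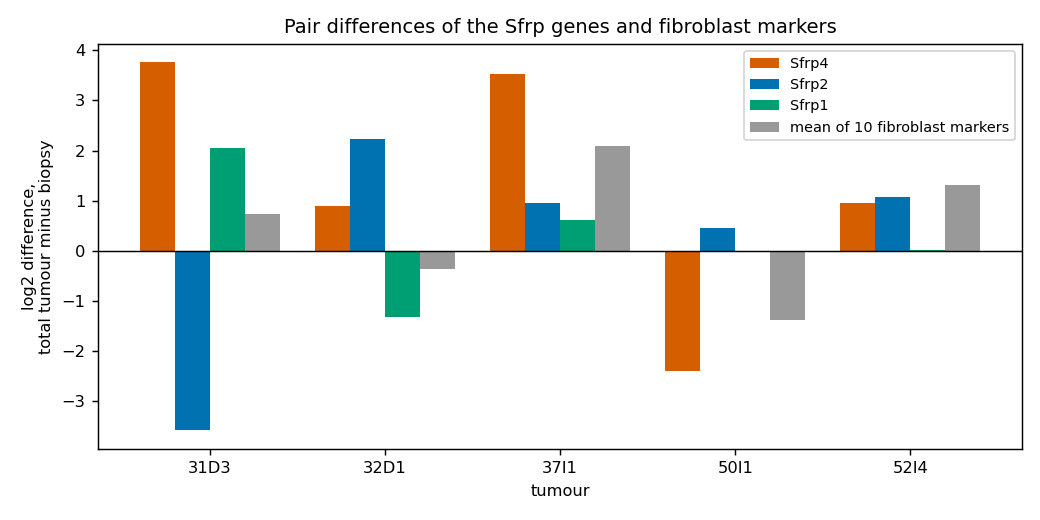
Difference in log2 signal between total tumour and biopsy (y axis) in each of 5 tumours (x axis) for Sfrp4, Sfrp2, Sfrp1 and the mean of 10 fibroblast markers. Sfrp4 and the markers are above 0 in 31D3, 37I1 and 52I4 and below 0 in 50I1, and Sfrp1 and Sfrp2 point opposite ways in 31D3 and 32D1.

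Across arrays, Sfrp1 was low where Sfrp2 was high. Over the 10 arrays their Pearson r was -0.91 and Spearman's rho -0.85, and r lay between -0.94 and -0.88 whichever tumour was left out. In 31D3 the total tumour had more Sfrp1 and less Sfrp2 than the biopsy, and in 32D1 it had less Sfrp1 and more Sfrp2. In 37I1 both were higher in the total tumour, Sfrp1 by 0.61 and Sfrp2 by 0.95, and in 50I1 and 52I4 Sfrp1 was level. These points are 5 tumours sampled at both moments, and the pair was singled out of 36 pairs of members after their values were seen, so r is a description.

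Dkk3, a divergent member of the Dickkopf family, had log2 signals of 9.49 (31D3), 8.25 (32D1), 8.38 (37I1), 9.15 (50I1) and 9.01 (52I4) in total tumours and 9.47, 8.70, 8.42, 9.22 and 9.19 in the biopsies. At both moments 31D3, 50I1 and 52I4 were high and 32D1 and 37I1 low, and the total tumour was slightly lower in 4 of 5 pairs. The difference was -0.15 (SE 0.104, limma adjusted p = 0.873), from 8.85 ± 0.53 in the total tumours and 9.0 ± 0.43 in the biopsies (SD, n = 5 each). Its other 3 probe sets were below the limit. Of 9 antagonists tested, 6 had a higher and 3 a lower mean in the total tumours, and 0 passed. Sostdc1, which binds Lrp receptors and bone morphogenetic proteins, spanned 6.36 to 9.59 in the total tumours and 6.63 to 10.33 in the biopsies, a difference of 0.21 (SE 0.572).

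Axin2, a scaffold of the destruction complex and a widely used readout of canonical signalling, spanned 0.87 log2 units, more than 57.7% of genes did. It had signals of 6.17 (31D3), 5.77 (32D1), 5.51 (37I1), 5.97 (50I1) and 6.01 (52I4) in total tumours and 6.35, 5.78, 5.48, 6.21 and 6.13 in the biopsies. The order of the tumours was the same at both moments except between 50I1 and 52I4, with 31D3 highest and 37I1 lowest. Means were 5.88 ± 0.26 in the total tumours and 5.99 ± 0.36 in the biopsies (SD, n = 5 each), a difference of -0.11 (SE 0.0895, limma adjusted p = 0.888) with 4 of 5 pairs lower.

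Lef1, which binds DNA and recruits β-catenin, had log2 signals of 7.86 (31D3), 7.61 (32D1), 6.31 (37I1), 9.17 (50I1) and 9.32 (52I4) in total tumours and 8.47, 8.05, 5.40, 9.19 and 9.45 in the biopsies. The 5 tumours kept 1 order at both moments, from 37I1 up to 52I4. Lef1 averaged 8.05 ± 1.24 in the total tumours and 8.11 ± 1.61 in the biopsies (SD, n = 5 each), a difference of -0.06 (SE 0.223, limma adjusted p = 0.979) that was 0.08 without 31D3 and -0.30 without 37I1. A second Lef1 probe set had 7.01, 6.54, 4.70, 8.04 and 8.17 in the total tumours and 7.38, 7.12, 4.18, 8.26 and 8.70 in the biopsies, again lowest in 37I1 and highest in 52I4, with a difference of -0.24 (limma adjusted p = 0.878).

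Ctnnb1 encodes β-catenin, whose activity is set mostly by protein stability. Its log2 signal lay between 12.33 and 12.51 in all 10 arrays, a range smaller than in all but 0.389% of genes, with 12.41 ± 0.07 in the total tumours and 12.40 ± 0.04 in the biopsies (SD, n = 5 each). The difference was 0.02 (SE 0.0878, limma adjusted p = 0.982). Its 2 other probe sets above the limit gave 0.16 and 0.11 and were less flat, from 12.0 to 12.57 and from 9.32 to 9.95 over the arrays. They correlated with the first at only -0.06 and 0.27.

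The share of each gene's squared deviations from its mean that lay between tumours was highest among the 9 in Wnt5a, Lef1, Dkk3 and Axin2. It was 95.8% for Wnt5a, 95.7% for Lef1, 93.4% for Dkk3 and 93.2% for Axin2, against a median of 52.9% over all genes tested, and was higher than in 99.7%, 99.6%, 99.0% and 98.9% of genes. Sfrp2 stood at 71.0%, Wnt5b at 62.0%, Sfrp1 at 51.6%, Ctnnb1 at 17.6% and Sfrp4 at 5.35%. Between total tumours and biopsies lay 25.3% for Sfrp4 and 22.1% for Wnt5b, where the median gene had 5.15%.

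**Figure D3:**
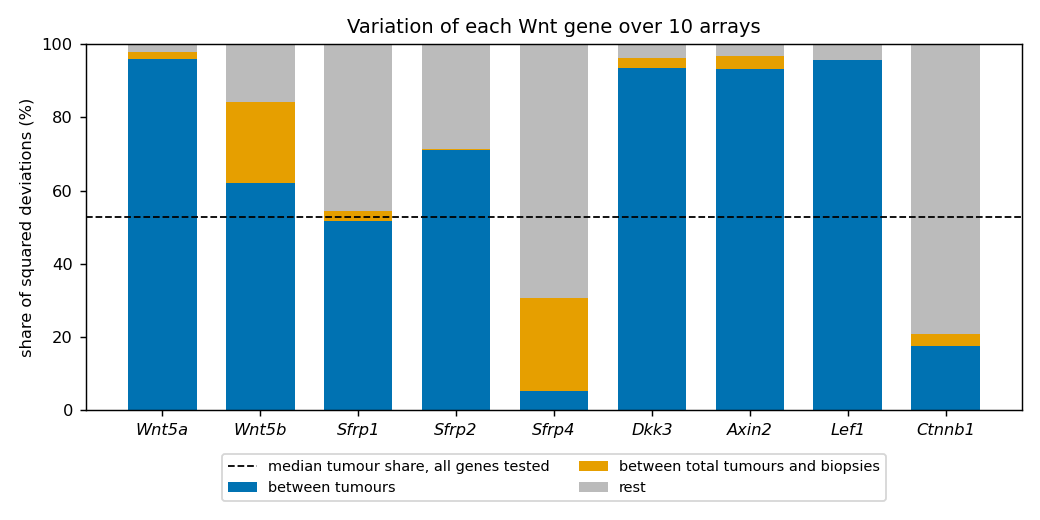
Share of the squared deviations over 10 arrays (y axis, %) that lay between tumours, between total tumours and biopsies, and in the rest, stacked for each of the 9 Wnt genes. The part between tumours is over 93% in Wnt5a, Dkk3, Axin2 and Lef1 and 5.35% in Sfrp4, and the dashed line marks the median of all genes tested, 52.9%.

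The difference between tumours was then tested by limma's F test of the tumour block, a term added after the values had been seen. At an unadjusted p under 0.05, 5 of the 9 genes differed between tumours, 55.6% against 10.1% of all genes. The unadjusted p was 0.000129 for Wnt5a, 0.000229 for Lef1, 0.00165 for Dkk3, 0.00791 for Axin2 and 0.0255 for Wnt5b in limma. None of the 9 passed after adjustment over all probe sets, where 16 of 18625 did (0.0859%) and 0.0371% of genes, and the limma adjusted p was 0.0922 for Wnt5a, 0.123 for Lef1, 0.194 for Dkk3 and 0.321 for Axin2. The second Lef1 probe set was 1 of those 16 (limma adjusted p = 0.0392). Without 37I1, 4 of the 9 had an unadjusted p under 0.05, against 9.13% of all genes. The unadjusted p in limma was then 0.022 for Wnt5a, 0.000904 for Lef1, 0.00781 for Dkk3 and 0.0711 for Axin2. The unadjusted p of Wnt5b in limma was 0.534 without 32D1, and without 31D3 the unadjusted p was 0.000282 for Sfrp2 and 0.0411 for Sfrp1. The sampled tissue also differed between arrays of 1 tumour: in 37I1 the fibroblast markers averaged 10.06 in the total tumour and 7.96 in the biopsy, and T cell markers 7.30 and 5.29. In those same arrays Wnt5a was at 5.68 in the total tumour and 5.41 in the biopsy, and Lef1 at 6.31 in the total tumour and 5.40 in the biopsy, each the lowest of its group. The Lef1 pair difference there, 0.91, was its widest and had the sign of these markers, whose part in the result was not tested.

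The genes most like each member by Pearson's r over the 10 arrays, among the 10792 other genes tested, included other members. Of all genes, Lef1 was the most like Wnt5a (r = 0.965), and Wnt5a was the second most like Lef1 after Armt1 (r = 0.967). LOC100909539 (r = 0.954) and the adenosine receptor Adora2b (r = 0.953) came next for Wnt5a, and the cation channel Trpm3 (r = 0.957) for Lef1. Without 37I1, r between Wnt5a and Lef1 was 0.85. Axin2 was most like Bcam, a laminin receptor (r = 0.934), and then Dkk3 (r = 0.914) and the lipase Abhd4 (r = 0.910). Dkk3 was most like Rabgap1l (r = 0.931), Art4 (r = 0.921) and the calcium channel Pkd2 (r = 0.917), with Axin2 next. The Dkk3 and Axin2 correlation lay between 0.89 and 0.97 whichever tumour was left out. Between Axin2 and Lef1 r was 0.79, and 0.37 without 37I1.

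**Figure D4:**
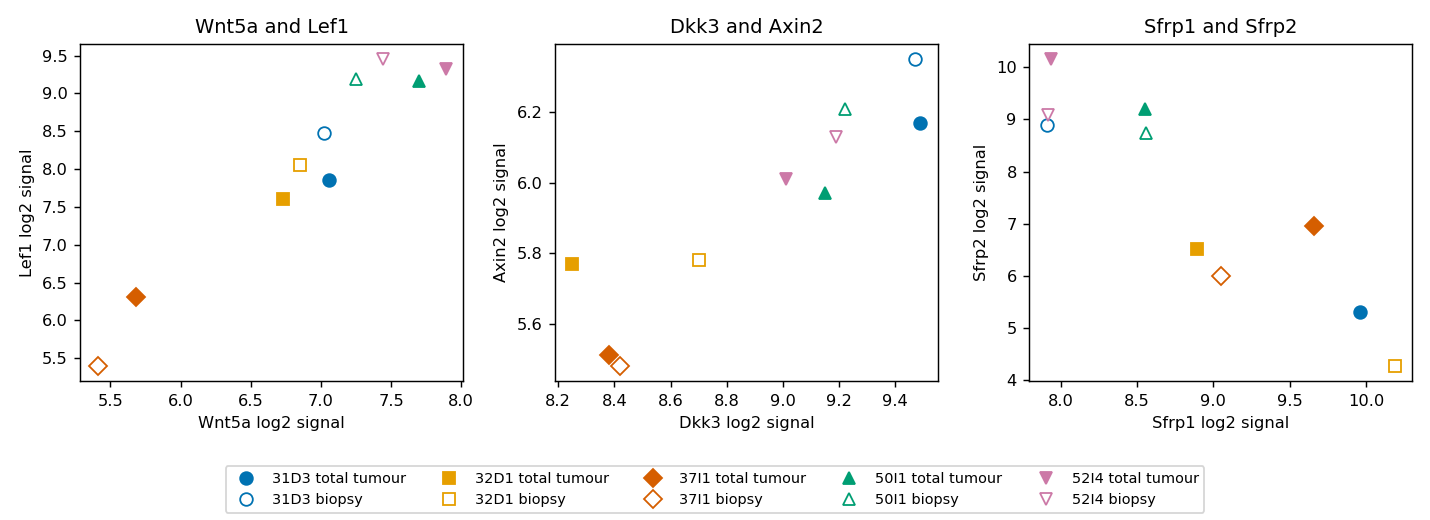
Log2 signals of 3 pairs of Wnt genes against each other, each gene on its own axis, with filled markers for total tumours and open markers for biopsies, coloured by tumour. Wnt5a and Lef1 increase together from 37I1 to 52I4, Dkk3 and Axin2 increase together from 32D1 and 37I1 to 31D3, and Sfrp2 is lower in arrays with higher Sfrp1.

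For Wnt5b the most alike genes were Gabrp, a GABA receptor subunit (r = 0.940), Dynlrb2, a dynein light chain (r = 0.936), and Ntn1, the guidance protein netrin (r = 0.924). For Sfrp1 they were Cdv3 (r = 0.946), the chromatin reader Ing2 (r = 0.928) and the cytoskeletal linker Eppk1 (r = 0.917). The genes nearest to Sfrp2 were Mgll, a monoglyceride lipase (r = 0.943), Cpe, a carboxypeptidase (r = 0.925), and Natd1 (r = 0.912). Ninj1, a membrane protein, was nearest to Sfrp4 (r = 0.926), ahead of Smim10l1 and Commd9 (r = 0.923 each). Ctnnb1, with its narrow range, reached only r = 0.80 with Rnf208, 0.752 with Wac-ps1 and 0.738 with Pum2. Each r describes the 10 arrays, in which the samples of a tumour are not independent.

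Beyond the 9 genes, 9 role lists written from general knowledge of the pathway held 112 genes, members included, of which 87 were read by a probe set of their own and 77 tested. Of the 77, 44 had a higher and 33 a lower mean in the total tumours, with a median difference of 0.02, and 0 passed after adjustment. At an unadjusted p under 0.05, 2 were higher (Wnt5b and Wnt6) and 3 lower, the receptor Lrp6, the agonist Rspo3 and the co-repressor Tle1, against 1.61% and 2.56% of all genes. Without 32D1 this count was 10 instead of 5, while over all 18625 probe sets the same limma count rose from 1133 to 1530.

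Tle1, which represses genes together with Tcf and Lef factors, had log2 signals of 6.09, 6.51, 6.77, 6.94 and 6.92 in the total tumours and 7.58, 7.19, 7.08, 7.09 and 7.70 in the biopsies. It was the 1 gene of the 77 whose groups did not overlap, each total tumour lying below each biopsy, as in 0.306% of genes on the lower side. The difference was -0.68 (SE 0.201, unadjusted p = 0.0129, limma adjusted p = 0.66), and between -0.82 and -0.48 whichever tumour was left out. Its relative Tle3 differed by -0.30 (SE 0.205), and the partners Tcf7l2 and Tcf7 by -0.14 (SE 0.222) and 0.34 (SE 0.337). Of 10 nuclear genes, Lef1 included, 3 had a higher and 7 a lower mean in the total tumours.

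At the receptors, 8 of 10 tested genes averaged higher in the total tumours, with differences between -0.42 and 0.16. Lrp6, a co-receptor of canonical signalling, had log2 signals of 7.26, 7.23, 7.90, 7.66 and 7.90 in the total tumours and 8.05, 7.98, 8.11, 7.87 and 8.03 in the biopsies. It was lower in 5 of 5 pairs (3.42% of genes were), by the most in 31D3 and 32D1, with a difference of -0.42 (SE 0.139, unadjusted p = 0.0215, limma adjusted p = 0.701). The unadjusted limma p of Lrp6 was 0.0637 without 31D3 and 0.0692 without 32D1, and under 0.05 without any other tumour. Its relative Lrp5 was higher in 5 of 5 pairs (2.41% of genes were), by only 0.15 (SE 0.0924, limma adjusted p = 0.872). The receptors Ptk7, Ryk and Fzd1, the brightest of the list, differed by -0.03 (SE 0.123), 0.16 (SE 0.117) and 0.05 (SE 0.162).

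Rspo3, an R-spondin that strengthens Wnt signals by protecting receptors from turnover, had log2 signals of 6.34, 5.83, 6.55, 5.81 and 6.24 in the total tumours and 7.52, 5.74, 6.92, 6.86 and 8.79 in the biopsies. It was lower in 4 of 5 total tumours, and the biopsy of 52I4 stood highest. Rspo3 differed by -1.01 (SE 0.363, unadjusted p = 0.0294, limma adjusted p = 0.75), and by -0.63 without 52I4. The R-spondin receptors Lgr6 and Lgr4 and the ligase Znrf3, which removes Frizzled receptors, differed by 0.28 (SE 0.191), -0.05 (SE 0.132) and -0.15 (SE 0.246).

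The intracellular list, 14 genes of the destruction complex and its regulators, had 5 higher and 9 lower means and differences between -0.34 and 0.17. Csnk1a1, a kinase that marks β-catenin for degradation, differed by -0.03 (SE 0.0991), and Tnks2, which destabilises axin, by -0.16 (SE 0.0994). Among 7 planar polarity genes, Vangl1 differed by 0.43 (SE 0.184, limma adjusted p = 0.823), higher in 4 of 5 pairs. Vangl2 differed by -0.07 (SE 0.107) and Daam1, which links Wnt receptors to actin, by 0.14 (SE 0.170).

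**Figure D5:**
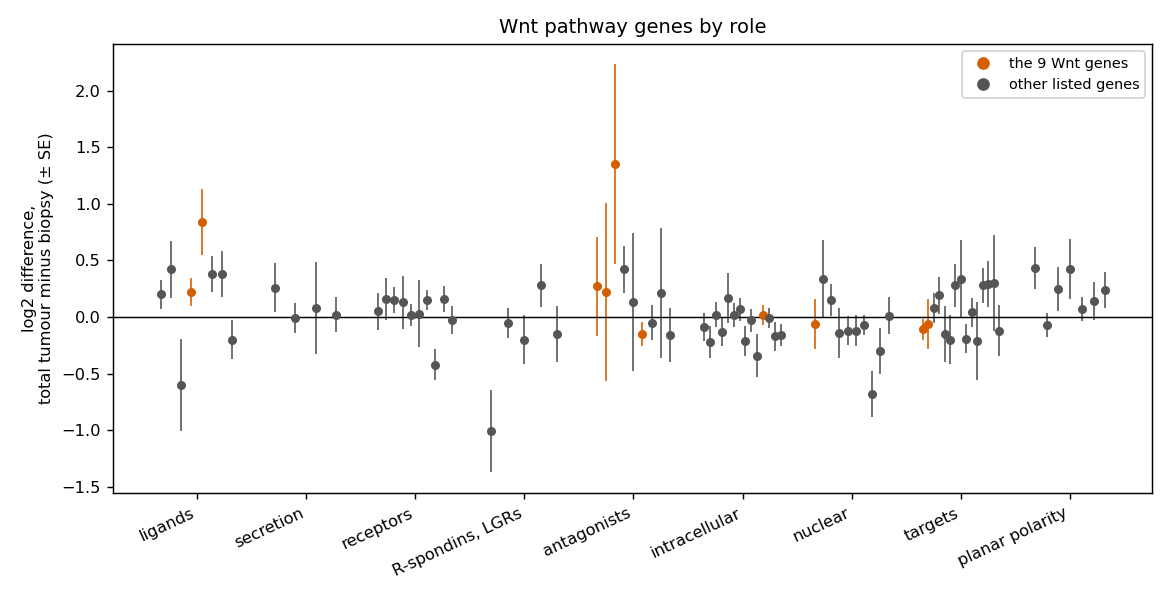
Difference in log2 signal between total tumour and biopsy (y axis, points with SE bars from limma) for each tested gene of the 9 role lists (x axis), the 9 Wnt genes in orange; a gene in several lists is drawn in each. Sfrp4 has the highest difference, 1.35, Rspo3 the lowest, -1.01, and intracellular genes lie between -0.34 and 0.17.

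Targets of the canonical pathway had the highest share of genes differing between tumours among the 9 lists. The lists were written with earlier results known, and this one holds Axin2 and Lef1, seen before the tumour term was added. Its median range over the 10 arrays was 1.85, against 0.57 for the intracellular list and 0.77 for all genes. Of 15 targets tested, 8 had an unadjusted p under 0.05 for the tumour term in limma (53.3%, against 10.1% of all genes), and 0 of the 14 intracellular genes did. The part of range in this contrast was not tested. These 8 were Axin2, Lef1, Lgr6, Tcf7, Myc, Ccnd1, Bambi and Cd44, and none passed after adjustment. Without 37I1 the count was 5 of 15, against 9.13% of all genes, and without 32D1 it was 10 of 15, against 9.31%. The target genes did not share 1 order of tumours. Bambi, a decoy receptor of the TGF-β family, had 7.88, 7.76, 7.55, 8.53 and 9.08 in the total tumours and 8.21, 7.48, 7.23, 7.87 and 8.61 in the biopsies, lowest in 37I1 and highest in 52I4 at both moments. Myc, a growth regulator, had 9.44, 9.49, 9.93, 10.22 and 9.78 in the total tumours and 9.43, 9.54, 10.17, 10.21 and 10.45 in the biopsies, lowest in 31D3 at both. The cell surface protein Cd44 had 10.05, 9.65, 8.74, 8.74 and 8.76 in the total tumours and 9.18, 9.70, 8.04, 9.19 and 8.38 in the biopsies, high in 31D3 or 32D1. Between total tumours and biopsies, 8 targets had a higher and 7 a lower mean, from -0.21 to 0.34, and the cyclin Ccnd1 differed by 0.04 (SE 0.126).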

How the data were processed

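The deposited values were log2 signals of probe sets on Affymetrix whole-genome rat arrays. Per the submitters' processing notes, the authors used RMA (Robust Multichip Average), which forces arrays onto 1 distribution and so removes any shift that most transcripts share. That the scale is log2 follows from the range of the values. For RMA's version and the chip definition, the sources used here give nothing. The study's own statistics were made in GeneSpring GX 7.3, per the series text. Groups and pairs came from the tumour names in the labels. The late sample is a needle sample in the series text and the total tumour in the sample labels, which were followed.

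Of 31099 probe sets, 57 controls were left out. Of the others, 20826 had 1 gene in the platform annotation, 436 several and 9780 none listed. The dimmest 40% by mean signal (limit 5.15) were left out, which left 18625 probe sets and 10793 genes. Total tumours were compared with biopsies by limma 3.58.1 (R 4.3.3), tumour being a block, with Benjamini-Hochberg adjustment over all 18625. Each p-value reflects the spread among these tumours only. Deviations from the group means correlated above 0.1 in 4 of 5 pairs, with r between 0.20 and 0.34, and at -0.21 in 50I1. The fit was tested on simulated data.

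The members and lists were chosen with earlier results of these data known. Named besides the members were, of each role list, the 3 brightest genes and any at an unadjusted p under 0.05, the 3 genes most like each member, and 2 genes of each marker list. Lrp5, Bambi, Wif1, Elf5 and the dim markers were named after their values were seen. Figures were drawn with matplotlib 3.10.9.

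The alternatives tried were no tumour block, other filters, the study's paired test, trend, array weights, other normalizations, other probe sets and leaving out each tumour.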

Additional observations from a re-analysis of the deposited data

Results flagged for a closer look

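In 44 groups of 5 samples (members, dim antagonists and marker means), 5 had a highest or lowest sample far from the other 4, measured by its gap to the nearest over the whole range, where chance flags about 5% of groups. Wnt5a was at 5.41 in the biopsy of 37I1, with the next biopsy at 6.85. The antagonist Wif1, which binds Wnt ligands, was at 7.74 in the total tumour of 50I1, with the next total tumour at 3.82 and all biopsies between 3.25 and 3.82. Wif1 was below the limit on dim signal on average and was not tested. T cell markers, led by Lck and Cd3e, averaged 9.58 in the total tumour of 31D3, with the next at 7.30, and 5.29 in the biopsy of 37I1, with the next at 7.72. Skeletal muscle markers, of which only Tnni2 and Acta1 were above the limit, averaged 8.05 in the total tumour of 37I1, with the next at 5.64, and 9.26 in the biopsy of that tumour.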

How the results depend on the processing

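Over 137 alternatives for the differences of the 9 genes, 128 kept their direction, 9 reversed and 0 passed the adjusted threshold. Other filters, no block, the paired test and the trend leave a mean difference unchanged by design. Those alternatives could not reverse a direction, so the 128 is no measure of stability. The Ctnnb1 difference was -0.01 with quantile normalization, Sfrp1 was -0.02 with its dimmest probe set, and Dkk3 was 0.20 and 0.03 with 2 probe sets below the limit. With each tumour left out, differences lay between -0.17 and 0.67 for Sfrp1, -0.28 and 1.18 for Sfrp2, -0.30 and 0.08 for Lef1, and -0.02 and 0.04 for Ctnnb1. With no replicate block, which drops the pairing, 0 probe sets passed, and the paired test of the methods also gave 0. The block changed no call. Probe sets that differed between tumours numbered 16, 26 with no filter, and 0 to 1 with a tumour left out, and the cause was not tested. Over the alternatives that keep the tumour block, the tumour term of Wnt5a had a limma adjusted p between 0.0698 and 0.485, and that of Lef1 between 0.0392 and 0.398. Signals near the limit of 5.15 bound what can be read of Sfrp4, Sfrp2, Axin2 and, in 37I1, Wnt5a and Lef1.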

Other observations

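Markers of other cell types that the samples could hold moved together in some tumours. In 37I1 the total tumour differed from the biopsy by 2.14 in macrophage markers, 2.01 in T cell markers and 0.45 in endothelial markers, and in 50I1 by -1.97, -1.64 and -0.95. Macrophage markers, led by Lyz2 and Cd68, averaged 8.04 to 10.24 in the total tumours and 7.26 to 10.01 in the biopsies, and endothelial markers, led by Vwf and Emcn, 6.95 to 8.03 in the total tumours and 6.98 to 7.89 in the biopsies. The mean of Acta1 and Tnni2, the only 2 of 6 listed skeletal muscle markers above the limit, was lower in the total tumour in 5 of 5 pairs. Its mean difference was -0.78 (exact sign-flip permutation p = 0.0625, two-sided, the smallest 5 pairs can give). Over the arrays Acta1 ranged from 4.04 to 11.93 and Tnni2 only from 6.36 to 7.31. Ckm, Myh4 and Tnnt3 were dim and Mylpf was not read, so muscle content cannot be read from this mean.

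Among antagonists outside the 9 genes, Frzb and Apcdd1 had 86.3% and 88.2% of their squared deviations between tumours. Frzb, a frizzled-related protein, had log2 signals of 6.24, 5.75, 5.72, 7.34 and 7.36 in the total tumours and 5.87, 5.96, 4.48, 7.13 and 6.85 in the biopsies (31D3, 32D1, 37I1, 50I1, 52I4). It was lower in 31D3, 32D1 and 37I1 than in 50I1 and 52I4 at both moments. Apcdd1, a membrane inhibitor, had 6.23, 5.41, 6.57, 7.04 and 7.66 in the total tumours and 6.12, 5.38, 6.92, 8.19 and 7.10 in the biopsies, lowest in 32D1. Both were chosen after their values were seen, and their limma adjusted p for the tumour term was 0.208 and 0.269.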
